A study of Mus musculus with 20 samples.

Results

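In a mouse series on complement C4, 10 genes that mark homeostatic microglia were followed through every library. Most of these genes encode proteins of the cell surface or the Golgi, or secreted proteins. The 10 genes are Tmem119, Cx3cr1, Siglech, Olfml3, Slc2a5, Golm1, Selplg, Crybb1, Sparc and Fcrls. They were taken as a fixed list of symbols, 10 of the 54838 genes counted, and all 10 were among the 12680 genes tested. Each of the 20 libraries came from 1000 microglia of 1 mouse at postnatal day 40, sorted from frontal cortex as cells high in CD11b and low in CD45. There were 4 WT mice, 5 labelled C4-/-, 5 labelled hC4A/-, 4 labelled hC4B/- and 2 labelled hC4A/A. C4-/- is read as loss of the mouse complement component, hC4A/- and hC4B/- as 1 allele of human C4A or C4B in a humanized transgenic mouse, and hC4A/A as 2 alleles of human C4A. The labels do not say whether the animals with human C4 keep mouse C4, and they give no strain or sex. Gate and age were the same in all groups.

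Microglia, the resident macrophages of the brain, take up a homeostatic state in the healthy brain, and its signature depends on signals such as TGF-beta and on CSF1R ligands. Fcrls, Cx3cr1, Siglech, Tmem119 and Selplg encode proteins of the cell surface, of which Cx3cr1 is the receptor for the neuronal chemokine fractalkine and Selplg encodes the selectin ligand PSGL-1. Siglech encodes a sialic acid binding lectin, Fcrls an Fc receptor-like protein and Tmem119 a membrane protein used as a microglia marker. Slc2a5 encodes the fructose transporter GLUT5 and Golm1 a Golgi membrane protein. Sparc and Olfml3 encode secreted matrix proteins, and Crybb1 encodes a beta crystallin better known from the lens. Levels of these genes commonly drop when microglia become activated or are kept in culture.

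The 10 genes lie on 7 chromosomes of GRCm38 (GENCODE annotation). Fcrls spans chr3:87250758-87263738 on the minus strand and Olfml3 chr3:103722222-103738001 on the minus strand. On chromosome 5, Crybb1 spans chr5:112255815-112269585 on the plus strand, and Tmem119 (chr5:113793729-113800516) and Selplg (chr5:113818536-113832644) follow each other on the minus strand with 18.02 kb between them. Slc2a5 lies at chr4:150119283-150144169 (plus strand), Siglech at chr7:55768178-55778925 (plus), Cx3cr1 at chr9:119901616-120069879 (minus), Sparc at chr11:55394500-55423183 (minus) and Golm1 at chr13:59634626-59675811 (minus). All are protein coding. Exons of Golm1 overlap those of Naa35 on the opposite strand over 1297 bases and exons of Cx3cr1 overlap the antisense gene Gm33858 over 78 bases, and without strand the reads of such stretches cannot be told apart.

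Promoter sequences from RefSeq (GRCm38.p6) matched 8 of the 10 genes, with Tmem119 and Selplg unmatched. The 250 bases before the RefSeq start are shown for 4 of them, on the strand of the gene, because the first pair read lowest and the other pair higher on average in 4 libraries with unusually many detected genes. Capitals mark TATAAA, or GGGCGG on either strand, which on these strands reads CCGCCC. Fcrls is from chr3:87263525-87263774 (minus strand), Crybb1 from chr5:112255570-112255819 (plus), Olfml3 from chr3:103738002-103738251 (minus) and Slc2a5 from chr4:150119094-150119343 (plus).
Fcrls: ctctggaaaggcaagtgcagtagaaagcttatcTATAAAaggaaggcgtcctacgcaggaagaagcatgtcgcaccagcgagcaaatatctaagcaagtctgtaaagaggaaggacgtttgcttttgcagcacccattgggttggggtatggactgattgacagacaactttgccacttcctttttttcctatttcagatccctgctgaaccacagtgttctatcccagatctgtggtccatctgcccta
Crybb1: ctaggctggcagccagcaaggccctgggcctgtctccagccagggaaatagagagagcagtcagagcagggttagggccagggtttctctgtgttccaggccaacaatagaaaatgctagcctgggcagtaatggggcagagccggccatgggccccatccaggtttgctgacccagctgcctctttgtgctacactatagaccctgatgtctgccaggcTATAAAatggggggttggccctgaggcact
Olfml3: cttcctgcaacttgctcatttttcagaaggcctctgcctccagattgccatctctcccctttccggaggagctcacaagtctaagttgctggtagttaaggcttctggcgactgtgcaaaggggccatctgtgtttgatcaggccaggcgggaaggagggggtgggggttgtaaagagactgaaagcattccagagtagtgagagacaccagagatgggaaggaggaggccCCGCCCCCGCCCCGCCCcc
Slc2a5: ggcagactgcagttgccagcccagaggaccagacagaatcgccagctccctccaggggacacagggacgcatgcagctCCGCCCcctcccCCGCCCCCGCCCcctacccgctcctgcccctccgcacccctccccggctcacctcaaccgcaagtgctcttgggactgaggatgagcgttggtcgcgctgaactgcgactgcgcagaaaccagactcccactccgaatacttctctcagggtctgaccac
Over 300 bases from 250 before to 50 after the start, searched on both strands, TATAAA occurred in Fcrls, Crybb1 and Golm1, 217 and 30 bases before the start in Fcrls and Crybb1 and 185 before it, on the opposite strand, in Golm1. GGGCGG occurred 3 times each in Olfml3 and Slc2a5 and 4 times in Golm1, and in none of Fcrls, Crybb1, Cx3cr1, Siglech and Sparc. Of the 32841 promoters of the same length, 13.6% held TATAAA and 35.7% held GGGCGG, and these 2 motifs do not overlap each other. The CpG count was 30 in Golm1 and 15 in Slc2a5, against 2 to 8 in the other 6 and a median of 7 over all promoters.

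Library depth ran from 855099 to 2735181 gene counts, of which the 10 genes took 0.187% to 0.782%. In 4 libraries over 27000 genes were detected. They are hC4B/- replicate 2, hC4B/- replicate 3, C4-/- replicate 3 and hC4A/A replicate 2, and are called broad. The other 16 held 11348 to 23912. Olfactory and vomeronasal receptor genes, which microglia do not use, gave at most 0.128 CPM per kb in the 16 and 0.220 to 1.02 in the broad ones, and in every library the lowest of the 10 genes stood at least 9.67 times above that level. Mouse C4b held 0 to 2 counts in the WT libraries and 4 to 428 in the 16 others, so it did not bear out the labels WT and C4-/-. Each genotype name below therefore stands for the libraries labelled with it. The names of the deposited count tables of WT start with a letter and those of the 16 others with a digit. No label says what this marks, and it cannot be told apart from genotype in contrasts with WT. Markers of other cells that the gate could hold summed to at most 36.3 CPM for lymphocytes, 73.3 for monocytes, 118 for neurons, 80.1 for endothelial cells and 77.7 for mural cells and fibroblasts. Larger sums came from the oligodendrocyte lineage list, 55.7 to 364 CPM, and the astrocyte list, 64.7 to 757 CPM, both highest in C4-/-. In the astrocyte list Slc1a3 alone reached 693 CPM. The neutrophil list reached 1436 CPM in WT replicate 2 and at most 177 in the broad libraries, and the border macrophage list ranged from 341 to 1796 CPM with its top in WT replicate 3.

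Levels are given as counts relative to a library size scaled by the TMM method (CPM). Per kb of merged exon, Fcrls was the most abundant of the 10, at a median of 1115 CPM per kb, and the highest in all 16 libraries that were not broad. Cx3cr1 (211 CPM per kb), Sparc (177), Siglech (135), Tmem119 (134) and Crybb1 (113) followed, then Selplg (71.4), Golm1 (23.1), Olfml3 (21.3) and Slc2a5 (8.56). Several neighbours in that order were not separated: Siglech exceeded Tmem119 in 13 of 20 libraries, Golm1 exceeded Olfml3 in 12 and Cx3cr1 exceeded Sparc in 14. Sparc exceeded Siglech in 17, Selplg exceeded Golm1 in 19, and Slc2a5 was the lowest of the 10 in 19 of 20.

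**Figure D1:**
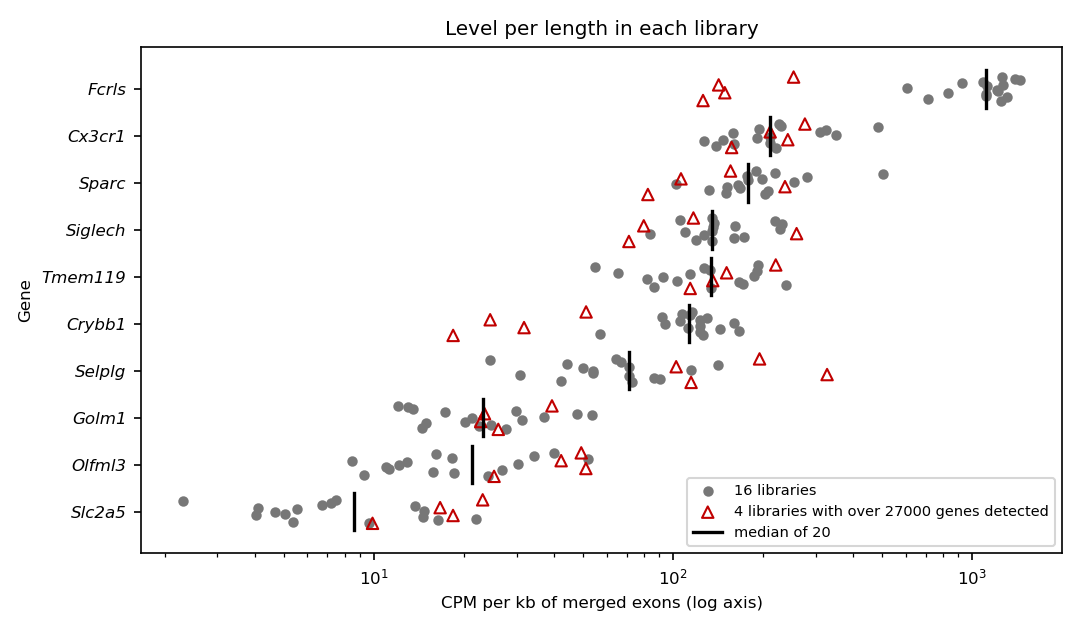
CPM per kb of merged exon length (log axis) for each gene in each of the 20 libraries, with filled points for the 16 libraries of at most 27000 detected genes, open triangles for the 4 above that and a bar at the median of 20. Fcrls lies at 606 to 1447 in the 16 libraries and at 126 to 253 in the 4, and Crybb1 shows the other gap between the symbols.

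Every gene was detected in every library, the lowest reading being 11 counts of Slc2a5 in WT replicate 2. The fitted biological coefficient of variation stands for the relative spread between mice of 1 genotype beyond counting noise. The fit draws it toward a trend over all genes, so it is not the observed spread of a gene. It was 0.607 to 0.733 for the 10 genes. Its median over all genes tested was 1.04, and 0.773 over the 2873 genes with an average log2 CPM of 5 or more. Golm1 (0.607), Cx3cr1 (0.609) and Siglech (0.616) had the smallest fitted values of the 10, and Fcrls (0.733) and Slc2a5 (0.731) the largest. Within single genotypes the observed coefficient of variation of CPM was 4.29% to 49.7% for Golm1 and 21.6% to 47.4% for Cx3cr1. For Fcrls it was 12.4% to 116%.

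Among the surface genes, Fcrls read 2941, 3238, 3376 and 2530.0 CPM in WT replicates 1 to 4 and 2834, 2858, 1941, 2603 and 2602 in hC4A/-. In C4-/- it read 2151, 2954, 591, 2619 and 1413 CPM, in hC4B/- 3042, 332, 348 and 1657, and in hC4A/A 2921 and 294. The values of 591, 332, 348 and 294 CPM belong to the 4 broad libraries, and every other library held more. Its mean was 3021 ± 374 CPM over the 4 WT libraries (SD here and throughout), 2568 ± 371 over 5 of hC4A/-, 1946 ± 953 over 5 of C4-/-, 1607 ± 1857 over 2 of hC4A/A and 1345 ± 1291 over 4 of hC4B/-. Ranges overlapped between WT and each other genotype. In sorted bulk RNA, fewer cells that express a gene and less of its RNA per cell cannot be told apart.

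Cx3cr1 read 1016, 1032, 2174 and 875 CPM in WT, 1461, 1393, 1243, 718 and 1574 in C4-/-, and 954, 859, 663, 572 and 948 in hC4A/-. In hC4B/- the receptor stood at 723, 952, 1090.3 and 627 CPM and in hC4A/A at 993 and 707. Of the 8 highest libraries for this gene 7 were WT or C4-/-, and the ranges of all genotypes overlapped. From highest to lowest mean, Siglech stood at 591 ± 177 CPM in C4-/-, 523 ± 260.0 in hC4B/-, 505 ± 166 in WT, 425 ± 111 in hC4A/- and 349 ± 153 in hC4A/A. Its full range was 241 to 876 CPM, and hC4B/- alone held readings from 270.2 to 876.

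Tmem119 ranged from 127 to 445 CPM in WT, 189 to 397 in hC4A/-, 200.2 to 553 in hC4B/-, 152 to 511 in C4-/- and 264 to 311 in hC4A/A. All 5 ranges overlapped, and the means lay between 285 and 360.2 CPM. Selplg, 18.02 kb away on the chromosome, read 276, 105, 287 and 189 CPM in WT and 231, 231, 132, 305 and 369.9 in hC4A/-. In C4-/- the readings were 606, 305, 832, 214 and 489.8 CPM, in hC4B/- 386, 438, 1399 and 181, and in hC4A/A 313 and 491. Its highest reading, 1399 CPM, and the next, 832 CPM, came from broad libraries, and both hC4A/A libraries stood above all 4 of WT, as held for 7.41% of the genes tested in that direction.

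Golm1 read 53.4, 57.7 and 59.8 CPM in WT replicates 1 to 3 and 132 in replicate 4, against 76.5, 211, 174, 237 and 164 CPM in C4-/-. In hC4A/- this Golgi gene stood at 94.6, 138, 89.2, 66.1 and 109 CPM, in hC4B/- at 99.5, 104, 101 and 64.3 and in hC4A/A at 123 and 115. WT replicates 1 to 3 held the lowest readings of the 20 libraries, and WT replicate 4 lay within the range of each other genotype except hC4B/- and hC4A/A, which it exceeded. The transporter gene Slc2a5 read 25.4, 7.83, 24.5 and 22.8 CPM in WT and 46.6, 13.99, 78.7, 18.8 and 49.9 in C4-/-. In hC4A/- it read 15.9, 17.2, 13.7, 49.7 and 74.5 CPM, in hC4B/- 56.0, 56.7, 62.6 and 18.3, and in hC4A/A 32.9 and 33.7. Low and high libraries of Slc2a5 thus sat side by side within C4-/-, hC4A/- and hC4B/-.

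Of the secreted products, Sparc read 719.6, 830.0, 1903 and 672 CPM in WT and 388, 627, 574, 633 and 499 in hC4A/-. In C4-/- it read 1062, 749, 589.9, 673 and 962 CPM, in hC4B/- 785, 403, 897 and 569, and in hC4A/A 772 and 312. All 5 hC4A/- libraries lay below all 4 WT libraries, which held for 0.797% of the genes tested in that direction, and under RLE scaling, a second way to set library sizes, the ranges overlapped. Sparc is also a gene of astrocytes, endothelial cells and fibroblasts. The astrocyte list summed to 317 to 629 CPM in WT and 296 to 523 in hC4A/-, led by Slc1a3 at means of 405 and 413 CPM, Slc1a2 averaged 6.79 and 20.2 CPM, and Aqp4, Gfap and Aldh1l1 averaged at most 1.61 CPM in either group. The endothelial list summed to 8.13 to 80.1 CPM in WT and 6.99 to 63.6 in hC4A/-. Of its 4 genes tested, 3 had a log2 fold change below 0 in hC4A/- against WT (median -1.74), 2 of them with an unadjusted p under 0.05 and 0 past the adjusted threshold. Pecam1 averaged 36.0 CPM in WT and 5.74 in hC4A/-, and Cdh5 3.75 and 0.138. Cldn5 went the other way, at 0.550 and 0.799 CPM, and the highest log2 fold change of the endothelial list was 2.93. The part of these markers in the Sparc values was not tested. WT replicate 3, with 1903 CPM of Sparc and the highest Cx3cr1 and WT Siglech, was the library with 1796 CPM of border macrophage markers, whose part was likewise not tested. For Olfml3 the means were 188 ± 124 CPM in C4-/-, 187 ± 121 in hC4B/-, 168 ± 72.7 in WT, 152 ± 5.29 in hC4A/A and 94.9 ± 41.3 in hC4A/-, with ranges that overlapped between all genotypes.

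Crybb1 read 114, 105, 112 and 90.6 CPM in WT, 128, 121, 50.5, 104 and 157 in C4-/-, and 92.5, 121, 111, 142 and 163 in hC4A/-. In hC4B/- it read 121, 24.1, 31.3 and 56.3 CPM and in hC4A/A 124 and 18.1. The 4 lowest readings were those of the broad libraries, and hC4B/- replicate 4, not a broad library, held the next lowest. In WT the coefficient of variation of Crybb1 was 9.98%, and that of Fcrls 12.4%. The plot of CPM by genotype shows all 10 genes together.

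**Figure D2:**
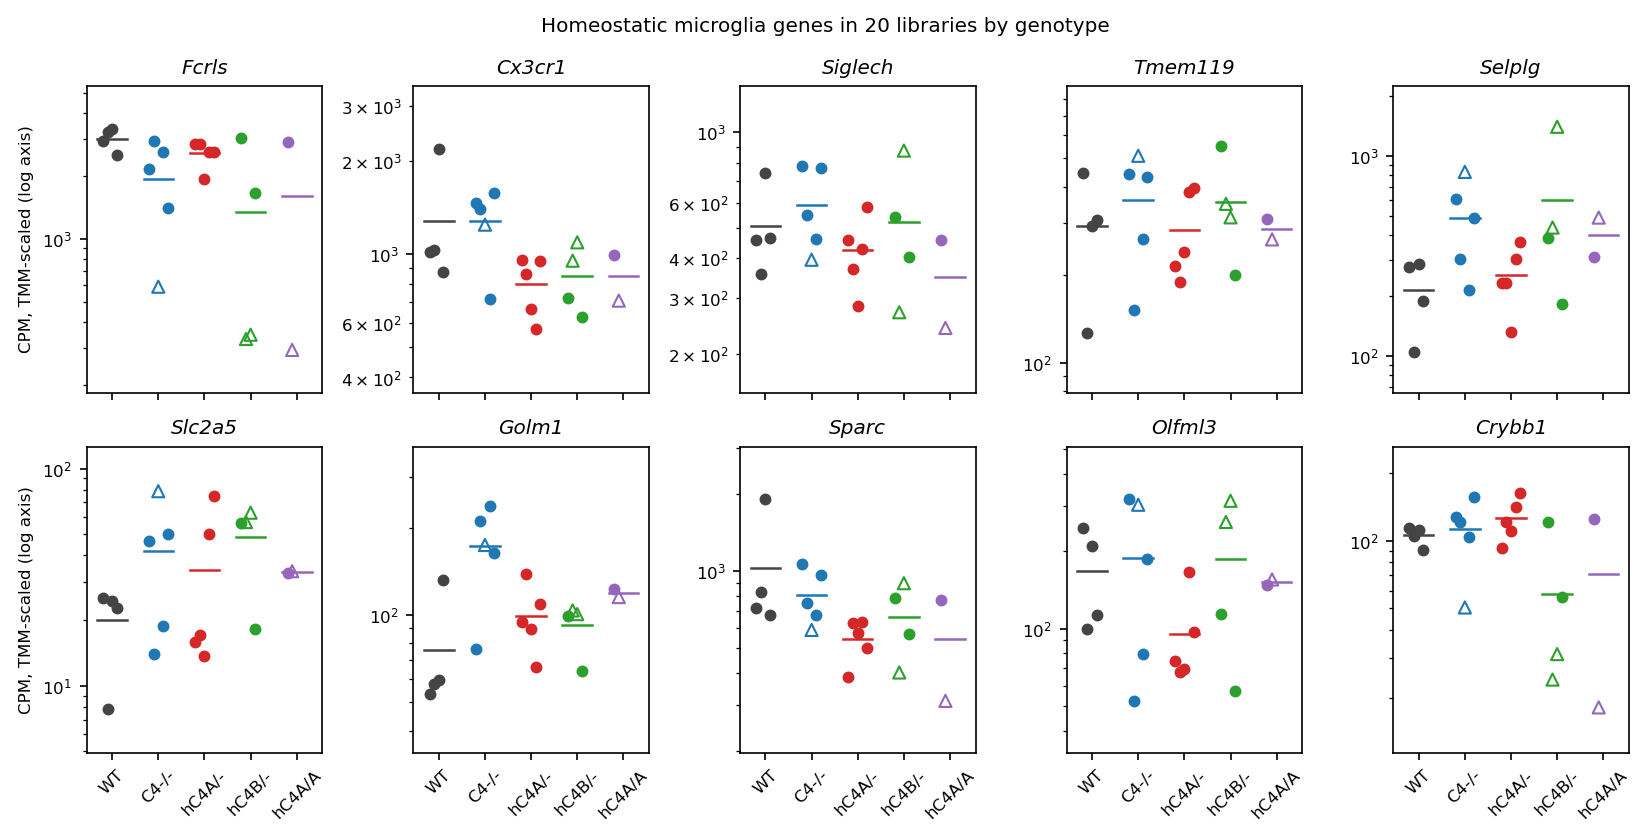
CPM after TMM scaling (log axis) by genotype, 1 panel per gene, with a point per library, open triangles for the 4 libraries of over 27000 detected genes and a bar at the group mean. The triangles lie at 294 to 591 CPM for Fcrls and at 18.1 to 50.5 for Crybb1, and Golm1 sits at 53.4 to 59.8 CPM in 3 of 4 WT libraries.

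The design asks what loss of C4 and gain of human C4A or C4B do to microglia. None of the 10 genes passed an adjusted p under 0.05 (edgeR's quasi-likelihood test, Benjamini-Hochberg over 12680 genes) in any of the 11 comparisons, and in this fit none had an unadjusted p under 0.05. Under 30 other settings, 57 of 3280 tests of a member gave an unadjusted p under 0.05, 24 of them for Selplg, with 12 from DESeq2 and 8 under RLE scaling. The shares of all genes that follow come from the reported fit, and those under the other settings are not given here. The counts under the other settings therefore have no share to be read against. In the reported fit, 0% of the genes tested passed in each of the 10 comparisons of groups. In the test for any difference among the 5 genotypes, 0.118% (15 genes) passed. At an unadjusted p under 0.05 the shares of all genes were 8.55% for C4-/- against WT, 7.51% for hC4A/-, 13.1% for hC4B/- and 8.41% for hC4A/A, 9.61% for the 16 other libraries together against WT and 12% for any difference. Other comparisons gave 10.7% for hC4A/- against C4-/-, 4.52% for hC4B/- against C4-/-, 2.17% for hC4A/A against C4-/-, 16.7% for hC4A/- against hC4B/- and 11.5% for hC4A/A against hC4A/-.

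In the libraries labelled C4-/- against those labelled WT, whose C4b counts went against these labels, 8 of the 10 genes had a log2 fold change above 0, with a median of 0.20 beside 0.33 over all genes. Golm1 had the smallest p: 173 ± 61.2 against 75.7 ± 37.6 CPM, a log2 fold change of 1.19 ± 0.59 (SE; 95% interval -0.02 to 2.39, edgeR adjusted p = 0.590). Selplg stood at 1.19 ± 0.70 (interval -0.23 to 2.62) and Slc2a5 at 1.04 ± 0.73 (-0.44 to 2.52), and Cx3cr1 at 0.004 (-1.32 to 1.33). Immediate early and dissociation genes, which respond to handling, summed to 385 to 1172 CPM in C4-/- and to 1719 to 2051 in WT. All 8 neutrophil markers tested lay below 0 (median -3.74, 7 with an unadjusted p under 0.05). All 6 mural and fibroblast markers tested lay above 0 (median 2.68), as did all 7 astrocyte markers (median 1.58), each list with 1 unadjusted p under 0.05. The part of these lists in the values of the 10 genes was not tested.

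In hC4A/- against WT, 4 of 10 lay above 0 and the median was -0.14, beside -0.05 over all genes. The handling genes summed to 1254 to 2369 CPM in hC4A/-, and 15 of 21 lay below 0 (median -1.33, 8 with an unadjusted p under 0.05). So did all 8 neutrophil markers tested (median -2.97, 7 with an unadjusted p under 0.05). The part of either list was not tested. Sparc had the smallest p, 544 ± 102 against 1031 ± 585 CPM, a log2 fold change of -0.92 ± 0.65 (interval -2.24 to 0.40, edgeR adjusted p = 0.884). Leaving out WT replicate 3, the library with 1903 CPM, brought it to -0.45. Neither group holds a broad library, and the SE also draws on the spread of the other genotypes. Without the broad libraries Sparc was at -0.78 ± 0.28 (edgeR unadjusted p = 0.013, adjusted p = 0.451). With only these 2 groups fitted it was at -0.80 ± 0.31 (edgeR unadjusted p = 0.020, adjusted p = 0.950). Cx3cr1 came to -0.57 and -0.60 in these fits (edgeR unadjusted p = 0.045 and 0.039, adjusted p = 0.476 and 0.969). Olfml3 was at -0.82 ± 0.66 and Cx3cr1 at -0.67 ± 0.65. Slc2a5 had the highest value, 0.77 ± 0.72, with 2 of its 5 libraries above all WT libraries.

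In hC4B/- against WT, 6 of 10 lay above 0 and the median was 0.10, beside 0.18 over all genes. Here the handling genes summed to 258 to 1697 CPM, with 17 of 21 below 0 (median -1.53, 6 with an unadjusted p under 0.05). All 6 mural and fibroblast markers tested lay above 0 (median 4.07, 4 with an unadjusted p under 0.05). All 8 neutrophil markers tested lay below 0 (median -3.04, 3 with an unadjusted p under 0.05). The part of these lists was not tested. Selplg averaged 601 ± 543 against 214 ± 85.2 CPM, a log2 fold change of 1.49 ± 0.73 (interval -0.004 to 2.98, edgeR adjusted p = 0.382). Relative to TMM, RLE scaling raised log2 CPM against WT by a mean over libraries of 0.34 in hC4B/- and 0.27 in hC4A/A. Total counts lowered it by 0.34 in hC4B/-. Fitted fold changes can move by other amounts: Selplg in hC4B/- came to 1.96 ± 0.70 under RLE (edgeR unadjusted p = 0.0095, adjusted p = 0.279). Selplg came to 0.55 without the 4 broad libraries and to 0.78 without hC4B/- replicate 3, the library with 1399 CPM. Fcrls was lowest, at -1.17 ± 0.86 (interval -2.92 to 0.58), and Crybb1 stood at -0.85 ± 0.67. Replicates 2 and 3, the broad libraries of this group, held the lowest values of both genes, and replicate 1, with 3042 CPM of Fcrls and 121 of Crybb1, lay within or above the WT range.

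In hC4A/A against WT, 3 of 10 lay above 0 and the median was -0.34, beside 0.18 over all genes. All 6 mural and fibroblast markers tested lay above 0 (median 5.04, 4 with an unadjusted p under 0.05). Of the handling genes 16 of 21 lay below 0 (median -1.08, 3 with an unadjusted p under 0.05). All 8 neutrophil markers tested also lay below 0 (median -2.72, 0 with an unadjusted p under 0.05). The part of these lists was not tested. Selplg was at 0.91 ± 0.86 (interval -0.83 to 2.65, edgeR adjusted p = 0.785), Sparc at -0.93 ± 0.87 and Fcrls at -0.91 ± 1.08. Under RLE scaling Selplg came to 1.38, and with no filter on low counts to 0.39. Without the broad libraries, which include hC4A/A replicate 2, Selplg came to 0.55. Selplg and Slc2a5 were higher in both hC4A/A libraries than in all 4 of WT, 2 of 10 beside 7.41% of all genes. The 2 hC4A/A libraries differed from each other by 9.93-fold in Fcrls and 6.86-fold in Crybb1, but by 1.02-fold in Slc2a5 and 1.05-fold in Olfml3.

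**Figure D3:**
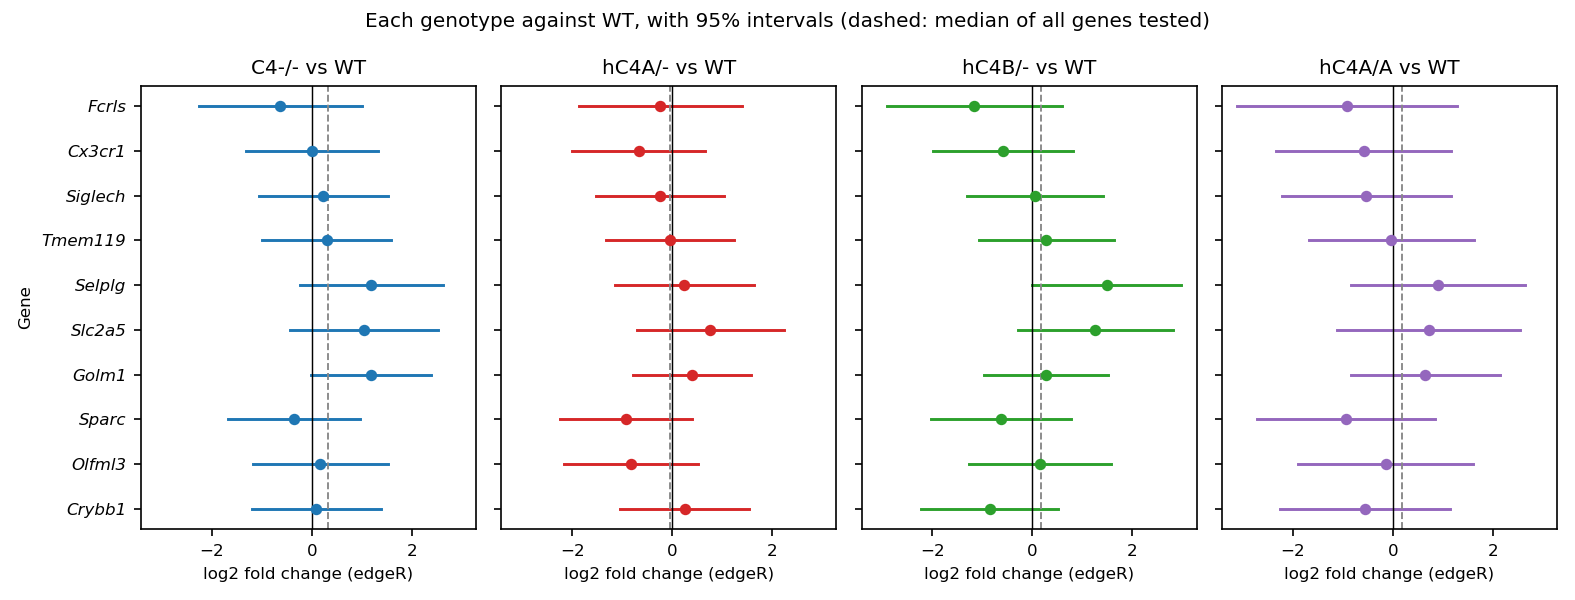
Log2 fold changes of the 10 genes in each genotype against WT from edgeR, with 95% intervals as bars, a solid line at 0 and a dashed line at the median of all genes tested. Every interval includes 0, with bounds from -3.11 to 2.98.

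Set against C4-/- rather than WT, all 10 genes had a log2 fold change below 0 in hC4A/A (median -0.43, values -0.76 to -0.27, beside a median of -0.02 over all genes), and 8 of 10 did in hC4A/- and in hC4B/-. Their medians were -0.52 in hC4A/- and -0.23 in hC4B/-, beside -0.32 and -0.03 over all genes. Of all 12680 genes, 6446 lay below 0 in hC4A/A, 7820 in hC4A/- and 6486 in hC4B/-. These comparisons share the C4-/- libraries, so their signs are not separate observations. The smallest p belonged to Olfml3 in hC4A/- (-0.99 ± 0.63, edgeR adjusted p = 0.555), Golm1 in hC4B/- (-0.91 ± 0.59, adjusted p = 0.990) and Siglech in hC4A/A (-0.76 ± 0.82, adjusted p = 1.0). Without the broad libraries Olfml3 in hC4A/- came to -0.43 and Siglech in hC4A/A to -0.34, and Golm1 in hC4B/- stayed at -0.89.

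Between the human genes, Selplg stood at a log2 fold change of -1.24 ± 0.68 in hC4A/- against hC4B/- (interval -2.63 to 0.14, edgeR adjusted p = 0.350), and came to -0.25 without the broad libraries. Crybb1 was at 1.11 ± 0.65 and Fcrls at 0.93 ± 0.82 in the same comparison. In hC4A/A against hC4A/- the genes split 5 above and 5 below 0, and Crybb1 had the smallest p (-0.81 ± 0.82, interval -2.48 to 0.87, adjusted p = 0.780). That value was 0.03 without hC4A/A replicate 2 and -2.77 without hC4A/A replicate 1, so the 2 libraries of this genotype set it. With 1 library left in a genotype, that library is assumed to vary as the others do.

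The width of the intervals sets what these comparisons could show. In C4-/- against WT, the 95% interval reached 1.21 to 1.63 on the log2 scale to either side of the fold change, and in hC4A/A against WT 1.49 to 2.20. For none of the 10 genes, in any of the 10 comparisons of groups, did the interval lie wholly between -1 and 1, so each still held a 2-fold difference in at least 1 direction. The summed CPM of the 10 genes averaged 6708 ± 1692 for WT, 5986 ± 912 for C4-/-, 5229 ± 654 for hC4A/-, 4719 ± 1475 for hC4B/- and 4414 ± 2519 for hC4A/A. The ranges of these sums overlapped between all genotypes.

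The 4 lowest readings of Fcrls and of Crybb1 were those of the 4 broad libraries. Fcrls read 294 to 591 CPM there, against 1413 to 3376 in the other 16 libraries, and Crybb1 18.1 to 50.5 against 56.3 to 163. Neither gene overlapped, as held in that direction for 7.05% of the genes tested, with medians 8.03-fold and 4.23-fold lower in the broad libraries. Fcrls stayed apart under RLE scaling and with plain total counts, and Crybb1 overlapped under both. Broad libraries occurred in 3 of the 5 genotypes and not in WT or hC4A/-.

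The other genes of the 10 did not share this gap. Selplg had a median of 661 CPM in the broad libraries against 282 in the other 16, Olfml3 282 against 106 and Slc2a5 59.7 against 23.6, all with overlapping ranges. Cx3cr1 read 1021 against 951 CPM, Tmem119 332 against 301 and Golm1 109.5 against 97.0, while Siglech (333 against 459.5) and Sparc (496 against 696) lay on the other side. Scaling moves every gene of a library together: RLE raised the broad libraries by 0.60 on the log2 scale relative to TMM, so that Siglech and Sparc came out above the other 16 by median and Selplg lay wholly above them, as 15.7% of the genes tested then did, and total counts lowered them by 0.24, so that Cx3cr1, Tmem119 and Golm1 came out below. Selplg, Olfml3 and Slc2a5 were higher by median, and Fcrls and Crybb1 lower, under all 3.

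A ratio within a library needs no scaling. For 1 count of Cx3cr1 the broad libraries held 0.319 to 0.475 counts of Fcrls, against 0.898 to 4.55 in the other 16. For Crybb1 the ratio was 0.0253 to 0.0406 against 0.0515 to 0.247, and for Selplg 0.460 to 1.28 against 0.101 to 0.534. The Fcrls and Crybb1 ratios did not overlap and the Selplg ratio did. This shows unequal levels of these genes relative to Cx3cr1, a gene picked after the values were seen, and not which of them differed. The broad libraries also held 40.4% to 65.9% of their counts on the satellite-like gene Gm10800, against 9.61% to 45.1%, and mural and fibroblast markers summed to 23.6 to 77.7 CPM, with 0.00 to 40.8 elsewhere. Handling genes summed to 231 to 385 CPM in the broad libraries against 565 to 2369 elsewhere. Genes of the disease-associated state summed to 586 to 1875 CPM against 4470 to 9365, and astrocyte markers to 64.7 to 143 against 166 to 757. Gene by gene, 9 of 21 handling, 7 of 20 disease-associated and 6 of 7 astrocyte genes tested had a higher mean log2 CPM in the broad libraries. The part of any of these in the Fcrls and Crybb1 values was not tested.

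**Figure D4:**
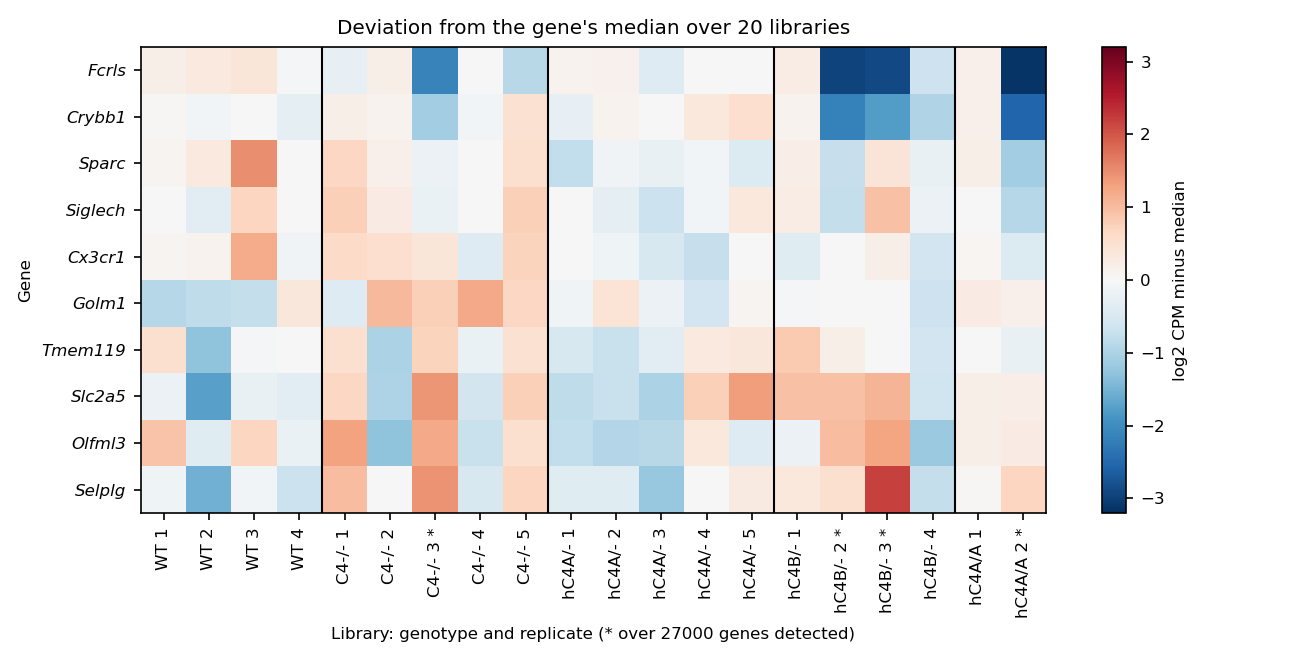
Log2 CPM of each gene in each library minus the median of that gene over 20 libraries, as colour, with libraries grouped by genotype and an asterisk on those of over 27000 detected genes. The asterisked columns are blue for Fcrls and Crybb1 and mostly red for Slc2a5, Olfml3 and Selplg, whose mean differences from the other 16 libraries were 1.08, 1.12 and 1.42.

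Over the 16 libraries that were not broad, 37 of the 45 pairs among the 10 genes had a correlation of log2 CPM above 0, with a median of 0.31. The points of such a correlation share a library, its depth and its scaling, so it is a description only. Tmem119 and Slc2a5 went together most closely (Pearson r = 0.89, Spearman rho = 0.88, 16 libraries), followed by Siglech and Selplg (0.83 and 0.74) and Slc2a5 and Selplg (0.82 and 0.82). Without the 2 libraries farthest from the median of the first gene of each pair, these were 0.83, 0.72 and 0.78. The neighbours Tmem119 and Selplg gave 0.72. The 9 pairs of Fcrls had a median of -0.10 and those of Golm1 one of 0.01. Without the 2 libraries farthest from the median of the other gene, Fcrls gave 0.51 with Siglech and -0.47 with Crybb1. The values of these 2 pairs thus depended on few libraries. With the remaining genes Fcrls stayed between -0.30 (Golm1) and 0.10 (Selplg) after such a removal. Its correlation with Crybb1 was 0.90 over 20 libraries and 0.12 over the 16, so it rested on the broad libraries.

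Beyond the 10, the genes whose log2 CPM went most closely with their mean over 20 libraries were Atp5c1 (Pearson r = 0.81), Ctsd (0.80), Malat1 (0.80), Tyrobp (0.79) and C1qb (0.78), among 2193 candidates. Over the 16 libraries without the broad ones they were Cst3 (0.92), Aif1 (0.91), Atp5c1 (0.88), Ucp2 (0.88) and Tmsb4x (0.87). Ctsd, Tyrobp, C1qb and Cst3 belong to a wider list of homeostatic genes, and Aif1 encodes the microglia marker IBA1. C4-/- replicate 1 was among the 5 highest libraries for 7 of the 10 genes, as was C4-/- replicate 5, and hC4B/- replicate 4 was among the 5 lowest for 7.

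That wider list of 53 homeostatic genes (P2ry12, Csf1r, Sall1 and others), all tested, also had 0 genes past the adjusted threshold in each comparison. Its median log2 fold change against WT, taken in the order C4-/-, hC4A/-, hC4B/-, hC4A/A, was 0.10, -0.15, -0.06 and -0.22, beside 0.33, -0.05, 0.18 and 0.18 over all genes. Of this list, 0, 0, 3 and 1 genes had an unadjusted p under 0.05 against WT, beside 8.55%, 7.51%, 13.1% and 8.41% of all genes. Those in hC4B/- included the transcription factor gene Runx1 (-1.36 ± 0.64, edgeR adjusted p = 0.377) and the matrix gene Ltbp1 (4.37 ± 1.86, 0.361). Ltbp1 averaged 4.72 ± 5.85 CPM against 0.192 ± 0.383 in WT, where few counts lie behind it. Irf8, a transcription factor of microglia, was at -1.46 ± 0.73 (adjusted p = 0.386).

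Genes of the disease-associated state, which homeostatic genes commonly oppose, had 20 of 26 members tested and likewise 0 past the adjusted threshold. Their median log2 fold changes in the same order were 0.03, -0.08, -0.49 and -0.64. Axl in hC4A/- was at 4.02 ± 1.70 (6.05 ± 9.15 against 0.268 ± 0.328 CPM, edgeR adjusted p = 0.574), and Itgax in hC4B/- at 4.18 ± 1.86 (4.11 ± 4.89 against 0.192 ± 0.383 CPM, 0.365). In hC4A/A, Igf1 was at 4.64 ± 1.89 (15.7 ± 7.49 against 0.501 ± 1.00 CPM, 0.558), and the chemokine gene Ccl4 at -3.17 ± 1.55 (1.62 ± 0.452 against 15.6 ± 7.99 CPM, 0.594). In the broad libraries the wider homeostatic list had a median difference of -0.54 from the other 16 and the disease-associated list one of -0.83, beside 0.48 over all genes. Within the wider list the differences ran from -3.12 for Ctss (462 against 4420 CPM by median) to 3.02 for Adgrg1 (183 against 16.96 CPM).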

How the data were processed

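Messenger RNA of 20 libraries was compared, grouped by the genotype in the sample titles, each library taken as 1 mouse since the labels' protocols give a cell number per mouse. The deposited values are raw counts of reads per gene, and STAR, edgeR and GRCm38 are named in the submitters' processing notes, with no version given in the sources used here. Only the unstranded column was used: 49.7% to 49.95% of the stranded counts fell on 1 strand. Lines that name no gene stayed out, namely unmapped (14.8% to 42.1% of reads), multimapping (13.2% to 28.9%), outside genes (21.8% to 42.1%) and ambiguous (0.897% to 5.86%). Pairs of libraries of 1 genotype differed by at least 26.3 times the chi-square of sampling noise per degree of freedom. The deposited normalized matrix equalled the raw counts in all 481140 values and served only as an alternative gene set.

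filterByExpr by genotype kept 12680 genes. All 20 libraries entered 1 robust edgeR quasi-likelihood model (edgeR 4.0.16, R 4.3.3, TMM scaling, 1 coefficient per genotype, 15 residual degrees of freedom), with p-values adjusted by Benjamini-Hochberg over all genes tested and a threshold of 0.05. The SE is the log2 fold change divided by the square root of F, and the 95% interval uses the t distribution of the fit. The script was tested on simulated data, in the comparison of all other genotypes with WT. At the spread of these data it called 3 of 100 genes with a true log2 fold change of 2. With a true value of 3 it called 24 of 100. At a fixed squared biological coefficient of variation of 0.1 it called 100 of 100 for both. The changed genes were drawn from all those above the median level, not from the 10 members. Log2 CPM carries a prior count of 2, and the reads, from amplified cDNA, carry no molecular identifiers. Alternatives were RLE scaling, library sizes without Gm10800, no filter, the matrix gene set, DESeq2 1.42.0, limma voom (limma 3.58.1), no robust estimation, only the contrasted groups, a replicate block, no broad libraries and each library left out. The members and lists, and the bound of 27000 detected genes, were chosen with earlier results of these data known. Named genes are the 10 members, per comparison the member of smallest p, up to 4 genes of smallest p of the other lists against WT, and the 5 genes most correlated with the members' mean at an average log2 CPM of at least 5. A gene that this rule names is not reported here.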

Additional observations from a re-analysis of the deposited data

Results flagged for a closer look

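In 5 of 40 groups of 4 or 5 libraries, 1 library stood apart from the others of its genotype by Dixon's criterion at the 95% level on log2 CPM, where chance flags about 1 in 20. Slc2a5 read 7.83 CPM in WT replicate 2 against 22.8 to 25.4 in the other WT libraries, a gap of 0.904 of the whole range. In hC4B/- replicate 4 it read 18.3 CPM against 56.0 to 62.6, a gap of 0.907 of the range. Golm1 read 132 CPM in WT replicate 4 against 53.4 to 59.8 (0.876), and 64.3 CPM in hC4B/- replicate 4 against 99.5 to 104 (0.913). Fcrls read 1941 CPM in hC4A/- replicate 3 against 2602 to 2858 (0.757). Leaving out WT replicate 4 moved Golm1 in C4-/- against WT from 1.19 to 1.56 on the log2 scale (edgeR adjusted p = 0.643).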

How the results depend on the processing

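Under 30 other settings, 20 of which leave out 1 library, the count of members past the adjusted threshold was 0 of 10 in all 328 recomputed counts, and the lowest adjusted p of any member was 0.0995 (Selplg, hC4A/- against hC4B/-, DESeq2), against 0.350 in the reported fit. The test for any difference among the genotypes has no direction, so its values could not reverse. Of 328 recomputed values of the member named in each of the 11 comparisons, 327 did not reverse. The exception was Crybb1 in hC4A/A against hC4A/-, from -2.77 to 0.027 over the fits that left out 1 library, the latter without hC4A/A replicate 2. Selplg in hC4B/- against WT moved from 1.49 to 0.55 without the broad libraries and to 1.96 under RLE scaling. Replicate numbers did not pair the libraries: the correlation of deviations from the genotype means had a median of 0.008 over 33 pairs of equal number and of -0.001 over 124 others, and 6 of 20 libraries correlated best with their own number. With a replicate block, 0 of 10 members passed in C4-/- against WT, and Golm1 was at 1.17. The log2 ratio of median CPM in the broad libraries over the others, with settings chosen after seeing the data, went from -3.005 to -2.49 for Fcrls and from 1.23 to 1.95 for Selplg under RLE scaling, and for Crybb1 from -2.08 to -1.50 under RLE and to -2.60 with total counts. Slc2a5 held 11 to 219 counts per library, and Crybb1 14 to 77 in the broad libraries.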
